A study of Mus musculus with 15 samples.

Results

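ATF4 is a transcription factor that cells make when amino acids run short, and 37 genes of its amino acid stress response, Atf4 included, were followed in the heads of mouse embryos that lacked Twist1 in the Mesp1-Cre lineage. The genes were chosen by gene symbol, from known ATF4 targets in serine and one-carbon synthesis, amino acid transport and stress regulation, at a time when the differences of the CM-CKO heads were already known. The values of CM-CKO heads are therefore given as a description, and nothing is supported with them. Of 45281 probes on the array, 65 carried the symbol of 1 of these genes. A probe was present for 33 of the 37 genes and absent for Gdf15, Mthfd1l, Pycr1 and Slc7a5. For Psph, Pck2 and Slc7a1 a probe was present but was detected on no array. The other 30 genes passed the filter of detection on at least 3 arrays and were tested among 11625 genes, and 26 of the 30 were detected on all 15 arrays.

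Whole heads were collected at embryonic day 9.5 (18 to 20 somites) from embryos of mixed C57Bl/6 x 129 x BALB/c descent, and RNA of 1 head was hybridised to each Illumina bead array. All 15 embryos carried a floxed Twist1 allele. Control heads (Twist1flox/+; Mesp1+/+, n = 3) had a wild-type allele beside it and no Cre, and Het heads (Twist1flox/del; Mesp1+/+, n = 4) had a deleted allele beside it and no Cre. CM-Het heads (Twist1flox/+; Mesp1Cre/+, n = 4) had a wild-type allele, and in addition carried Cre at Mesp1, which acts in early mesoderm and all its descendants, vessels and blood precursors among them. CM-CKO heads (Twist1flox/del; Mesp1Cre/+, n = 4) had the deleted allele and the same Cre, so that loss of both alleles was limited to the Cre lineage and every other cell had 1 allele. The Cre allele replaces a Mesp1 allele, and a whole head mixes mesoderm with neural crest, brain, ectoderm, vessels and blood. In such mixed samples fewer cells of a type and less RNA per cell cannot be told apart.

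Mean deposited signals of 341.0 to 434.4 were recorded on the 15 arrays, on each of which 19204 to 19793 probes passed detection. Twist1 log2 signal was 9.87 to 9.95 in Control, 9.76 to 10.04 in CM-Het, 8.62 to 9.32 in Het and 8.94 to 9.34 in CM-CKO heads (means 9.92, 9.91, 8.97 and 9.16). The heads with a deleted allele were thus lower, and CM-CKO heads did not lie below Het heads. Of 7 head neural markers with a probe, 6 were detected on all arrays, and of 7 trunk markers with a probe none was, with 4 detected on no array. The 14 measured erythroid markers set the CM-CKO heads apart: their mean log2 signal was 8.39, 9.68, 7.67 and 10.33 in CM-CKO 1 to 4 and between 6.19 and 6.89 on the other 11 arrays. CM-CKO 1 to 3 lay on slide 1 with Het 1, and CM-CKO 4 lay on slide 3 with arrays of all other genotypes, so slide and genotype overlap in part, and within-slide values are given for several genes.

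ATF4 protein is made when a kinase such as GCN2, PERK or HRI phosphorylates the translation factor eIF2, which lowers most protein synthesis but favours the Atf4 messenger. ATF4 then pairs with C/EBP proteins on a composite DNA element, known as the C/EBP-ATF or amino acid response element, and turns on genes that import amino acids, build serine, glycine, proline and asparagine, and end the response again. HRI is the main eIF2 kinase of red cell precursors, where it responds to haem shortage, and GCN2 responds to uncharged transfer RNA. Since the control of ATF4 itself is mainly at translation, the amount of its messenger is an incomplete measure of its activity.

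The composite element was looked for in the promoters of the 37 genes, in RefSeq windows of 300 bases (250 before to 50 after each annotated start, GRCm38.p6). A window was present for 31 of the 37 genes. The 8 letters TGATGNAA, searched on both strands, were found in 11 of 31 genes (35.5%), against 4.51% of 27025 genes and 3.97% of 32851 windows in all. The stricter form TTGCATCA, which is 1 of the forms of the same motif read on the opposite strand, was found in 8 of 31 genes (25.8%), against 1.03% of all genes and 0.895% of all windows. Of the 11 members described array by array below, 10 had a window and 5 held the motif. The windows around it are shown for the 6 genes with the largest CM-CKO difference that held a match, because they hold the letters of the element through which ATF4 is known to act. A match is a description and not a site. The Chac1 sequence covers the whole 250 bases before the start, the other sequences surround the match, and capitals mark the match.
Chac1, chr2:119350992-119351241, plus strand: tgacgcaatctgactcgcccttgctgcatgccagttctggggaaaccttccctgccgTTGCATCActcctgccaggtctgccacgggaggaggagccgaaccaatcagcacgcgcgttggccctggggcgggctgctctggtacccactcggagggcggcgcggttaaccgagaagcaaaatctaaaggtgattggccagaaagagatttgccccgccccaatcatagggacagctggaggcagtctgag
Trib3, chr2:152344031-152344106, minus strand: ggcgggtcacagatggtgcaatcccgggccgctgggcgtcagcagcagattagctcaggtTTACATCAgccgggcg
Vldlr, chr19:27216770-27216835, plus strand: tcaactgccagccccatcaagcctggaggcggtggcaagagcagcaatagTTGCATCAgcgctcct
Nupr1, chr7:126625565-126625640, minus strand: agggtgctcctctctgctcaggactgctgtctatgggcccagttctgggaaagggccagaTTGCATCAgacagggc
Asns, chr6:7693217-7693292, minus strand: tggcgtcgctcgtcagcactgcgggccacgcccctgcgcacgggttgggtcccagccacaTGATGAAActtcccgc
Atf3, chr1:191183428-191183503, minus strand: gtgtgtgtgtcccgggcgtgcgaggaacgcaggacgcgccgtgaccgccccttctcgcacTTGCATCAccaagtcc
The match began 193 bases before the start in Chac1, 200 before in Vldlr (at 1 of its annotated starts), 110 before in both Nupr1 and Atf3, 23 before in Asns and 15 bases after the start in Trib3. The same letters were found in Slc7a11, Slc1a4, Pycr1, Jdp2 and Pck2. The windows of Atf4, Stc2, Slc6a9, Ddit3 and Cebpb did not hold them, which says only that these letters are not in this stretch. TGACGTCA, the full cyclic AMP response element, was found in Ppp1r15a alone among the 31 genes (3.23%), against 2.03% of all genes.

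In CM-CKO heads most of the measured genes were higher than in every other genotype. The largest differences were those of Chac1, Trib3, Stc2 and Vldlr, from 3.53-fold to 10.3-fold over the mean of the 11 other arrays. These sizes depend on the background correction: without it the log2 difference from Control was 2.30 for Chac1 (3.53 with it), 1.30 for Stc2 (2.19) and 0.55 for Nupr1 (1.48). Atf3, Ddit3, Jdp2 and Sesn2 also moved by over 1.5 times, to 0.30, 0.79, 0.28 and 0.42, and all of these genes still passed. Of 30 genes, 18 were higher and 0 lower in CM-CKO than in Control heads at an adjusted p under 0.05, beside 3.96% of all 11625 genes higher and 3.28% lower. Against Het heads 19 of 30 were higher and 0 lower (all genes 4.15% higher and 4.33% lower), and against CM-Het heads 23 were higher and 0 lower (all genes 5.29% higher and 4.62% lower). The same 18 genes passed in all 3 comparisons, among them Nupr1, which passed the detection filter only through the CM-CKO heads. The median difference of the 30 genes was 0.63, 0.64 and 0.64 on the log2 scale against Control, Het and CM-Het, where the median of all genes was −0.03, −0.04 and −0.03. These counts and medians include the contrast on which the genes were chosen, so no more is read from them. Every CM-CKO array lay above every other array for 16 of the 30 genes, and this held for 3.17% of all genes.

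**Figure D1:**
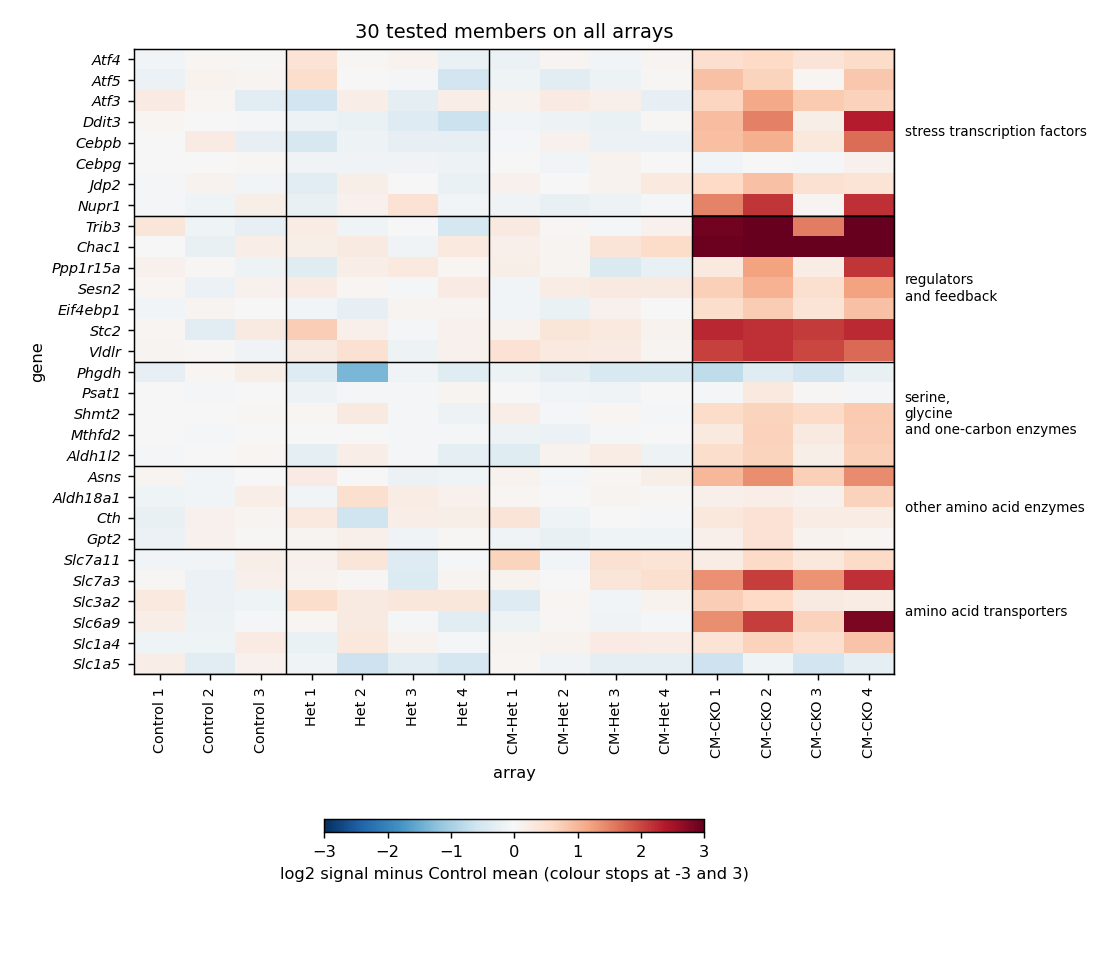
Each row is 1 of the 30 tested genes, grouped by role, and each column 1 array, ordered by genotype; colour gives log2 signal minus the Control mean of that gene, red above and blue below, with the colour held constant beyond 3. The 4 CM-CKO columns on the right are red for most rows, deepest for Trib3, Chac1, Stc2 and Vldlr, and pale for Cebpg and Psat1.

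Among the stress transcription factors, 6 of 8 passed against Control. Atf4 itself had log2 signals of 10.78, 10.92 and 10.89 in Control 1 to 3, of 11.27, 10.90, 10.97 and 10.67 in Het 1 to 4 and of 10.69, 10.95, 10.77 and 10.95 in CM-Het 1 to 4. In CM-CKO 1 to 4 it read 11.37, 11.46, 11.24 and 11.41. The CM-CKO heads lay above all Control and CM-Het heads but overlapped with Het 1, which was higher than CM-CKO 3. The difference from Control was 0.51 ± 0.12 (log2, SE of the fit), or 1.42-fold, the smallest among the genes described array by array. A second Atf4 probe gave 0.18 ± 0.20, and with slide as a block the Atf4 difference was 0.37 ± 0.15 and passed against no other genotype. Within slide 1 the CM-CKO heads exceeded Het 1 by 0.09 for Atf4 and by 0.01 for Atf5.

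Ddit3 encodes CHOP, the C/EBP-family factor associated with death of stressed cells. It read 6.48, 6.41 and 6.39 in Control, 6.28, 6.24, 6.04 and 5.79 in Het and 6.35, 6.27, 6.23 and 6.45 in CM-Het heads. In CM-CKO 1 to 4 it read 7.36, 7.93, 6.61 and 8.79. All 4 CM-CKO heads were above the rest, but CM-CKO 3 only narrowly so. The difference was 1.25 ± 0.33 from Control, 1.58 ± 0.30 from Het and 1.35 ± 0.30 from CM-Het, and a second Ddit3 probe gave 1.20 ± 0.21 from Control.

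Nupr1 encodes a small stress-induced nuclear protein and was the faintest of these genes. Its log2 signals were 4.53, 4.45 and 4.77 in Control, 4.36, 4.72, 5.01 and 4.51 in Het and 4.48, 4.36, 4.43 and 4.55 in CM-Het heads. The CM-CKO heads read 6.08, 6.73, 4.65 and 6.79, so that 3 of them stood clear of all other arrays and CM-CKO 3 lay among them. Nupr1 was detected on 3 of 4 CM-CKO arrays, on 1 Control array, on 1 Het array and on no CM-Het array. It thus passed the filter of 3 arrays only through the CM-CKO heads. Against the lowest detectable signal on the CM-Het arrays the CM-CKO mean was at least 2.54-fold higher, and the fitted difference from Control was 1.48 ± 0.36.

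Cebpb encodes C/EBPβ, a partner of ATF4 and CHOP on the composite element. It read 7.42, 7.67 and 7.19 in Control, 6.94, 7.27, 7.18 and 7.17 in Het and 7.38, 7.56, 7.25 and 7.24 in CM-Het heads. In the CM-CKO heads it read 8.33, 8.50, 7.74 and 9.10, above every other array. The difference from Control was 0.99 ± 0.22.

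The other transcription factors showed smaller differences from Control or none that passed. Atf3, an early stress factor and ATF4 target, differed by 0.81 ± 0.19, and Jdp2, a repressor of AP-1, by 0.58 ± 0.13. Atf5, a factor controlled at translation like Atf4, differed by 0.60 ± 0.22 and passed against CM-Het only. Cebpg, which encodes another dimer partner of ATF4, read 9.92 ± 0.10 (SD, n = 4) in CM-CKO and 9.93 ± 0.03 (SD, n = 3) in Control heads, a difference of −0.01 ± 0.08.

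The regulators of the response held the largest differences, and 6 of 7 measured members passed against Control, with a median difference of 1.98. Chac1 encodes an enzyme that breaks down glutathione. Its log2 signals were 5.71, 5.46 and 5.90 in Control, 5.87, 5.97, 5.59 and 5.99 in Het and 5.85, 5.76, 6.08 and 6.23 in CM-Het heads. CM-CKO 1 to 4 read 8.62, 9.73, 8.83 and 9.70, more than 2 log2 units above the highest other array. The difference was 3.53 ± 0.24 from Control, 3.37 ± 0.22 from Het and 3.24 ± 0.22 from CM-Het heads.

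Trib3 encodes a pseudokinase that binds ATF4 and CHOP and restrains them. It read 6.71, 6.23 and 6.10 in Control, 6.58, 6.21, 6.33 and 5.82 in Het and 6.61, 6.39, 6.31 and 6.47 in CM-Het heads. In CM-CKO 1 to 4 it read 9.23, 9.66, 7.88 and 10.24. No CM-CKO head overlapped with another group, although the 4 heads themselves spanned over 2 log2 units. The difference from Control was 2.91 ± 0.37, and the other Trib3 probes, both fainter, gave 1.43 ± 0.38 and 1.66 ± 0.38.

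Stc2 encodes stanniocalcin 2, a secreted glycoprotein induced by several stresses. It read 5.99, 5.58 and 6.20 in Control, 6.66, 6.08, 5.88 and 6.04 in Het and 6.03, 6.29, 6.23 and 6.03 in CM-Het heads. The CM-CKO heads read 8.18, 8.11, 8.03 and 8.15, which is 8.12 ± 0.07 (SD, n = 4). These 4 heads were nearly alike, unlike those of Trib3 or Ddit3, and the difference from Control was 2.19 ± 0.17.

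Vldlr encodes the very low density lipoprotein receptor, which also receives reelin. It read 7.60, 7.55 and 7.43 in Control, 7.80, 7.99, 7.37 and 7.66 in Het and 7.96, 7.83, 7.79 and 7.61 in CM-Het heads. The CM-CKO heads read 9.57, 9.72, 9.53 and 9.23, with CM-CKO 4 the lowest of them. The difference from Control was 1.98 ± 0.14, and its other kept probes gave 1.92 ± 0.16 and 1.82 ± 0.15.

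Sesn2, which encodes a leucine sensor that restrains mTORC1, differed from Control by 0.86 ± 0.16, and Eif4ebp1, which encodes a repressor of cap-dependent translation, by 0.64 ± 0.13. For both genes every CM-CKO array was above every other array. Ppp1r15a encodes GADD34, the phosphatase subunit that reverses eIF2 phosphorylation and so ends the response. Its log2 signals in CM-CKO 1 to 4 were 7.67, 8.59, 7.60 and 9.51, and the other 11 arrays ran from 6.95 to 7.66. The difference from Control of 0.97 ± 0.34 did not pass, and CM-CKO 3 lay within the range of the other groups. With slide as a block it was 1.77 ± 0.31 and passed (limma adjusted p = 0.0051), as it did against Het and CM-Het and in the interaction.

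**Figure D2:**
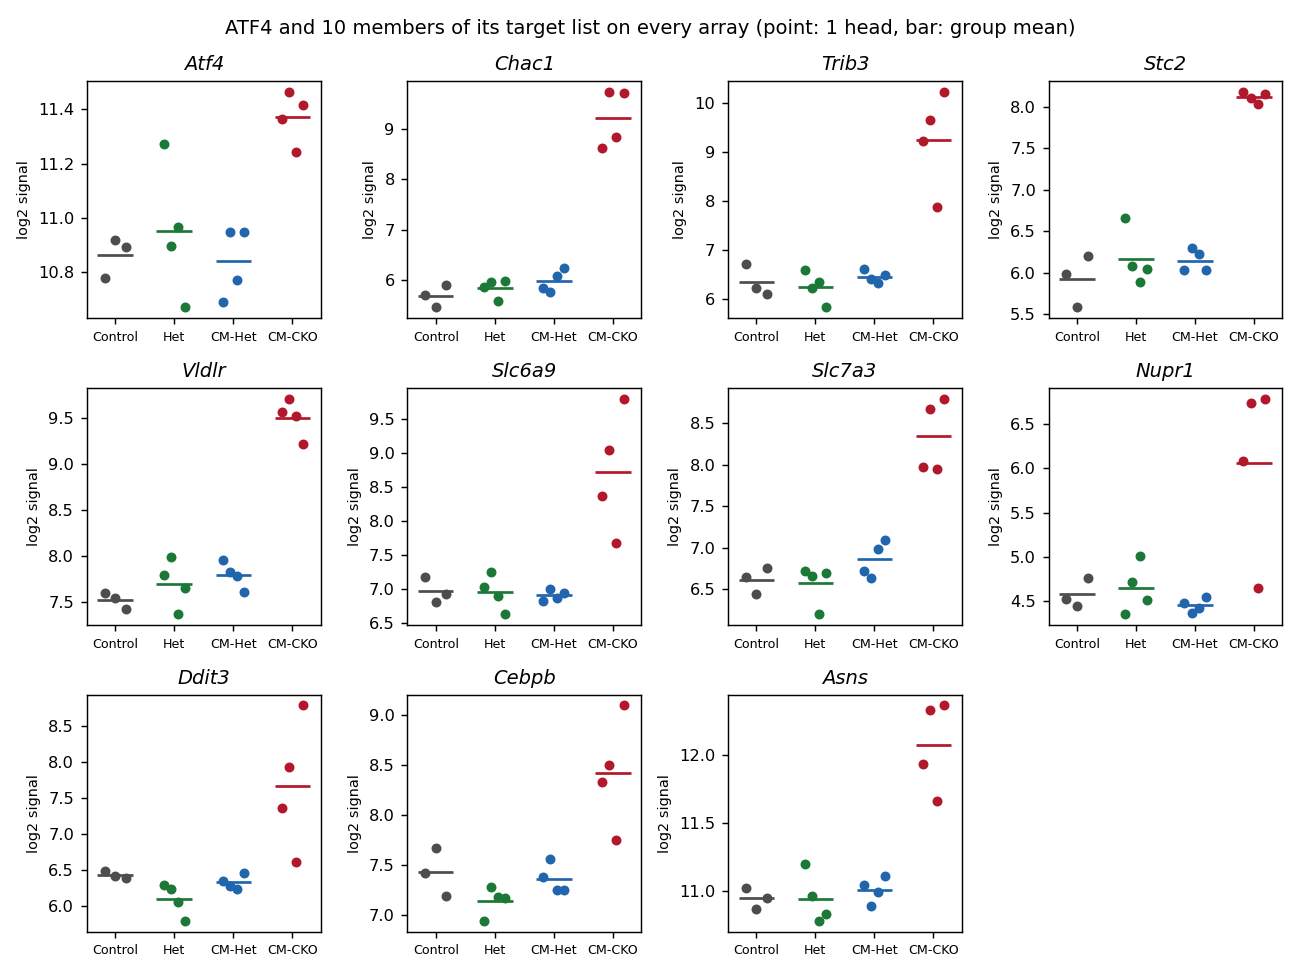
Each panel shows the log2 signal (vertical axis) of Atf4 or of 1 of the 10 genes with the largest CM-CKO difference in Control (n = 3), Het, CM-Het and CM-CKO heads (n = 4 each); a point is 1 head and a bar the group mean, and each panel has its own scale. CM-CKO points of Stc2 and Vldlr lie close together, whereas those of Trib3, Slc6a9, Ddit3 and Nupr1 spread widely, with CM-CKO 3 the lowest.

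The amino acid enzymes were divided. Asns, asparagine synthetase, read 11.02, 10.86 and 10.95 in Control, 11.19, 10.96, 10.77 and 10.82 in Het and 11.04, 10.89, 10.99 and 11.11 in CM-Het heads. The CM-CKO heads read 11.94, 12.34, 11.66 and 12.37, all above the rest. The difference from Control was 1.13 ± 0.15, and its other kept probes gave 1.08 ± 0.24 and 0.91 ± 0.28. The other 3 measured enzymes of this group did not pass against Control: Aldh18a1, the first enzyme of proline synthesis from glutamate, had 0.30 ± 0.15, Cth, which makes cysteine from cystathionine, 0.31 ± 0.19, and Gpt2, the mitochondrial alanine aminotransferase, 0.19 ± 0.11.

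Of the serine, glycine and one-carbon enzymes, 2 of 5 measured genes passed against Control. Shmt2, the mitochondrial hydroxymethyltransferase that turns serine into glycine, was higher by 0.64 ± 0.11, and Mthfd2, the next mitochondrial enzyme of the folate pathway, by 0.51 ± 0.12. Aldh1l2, which oxidises the formyl folate made there, had 0.53 ± 0.16 and passed against Het and CM-Het but not against Control. A second Aldh1l2 probe, detected on 6 arrays, gave 0.12 ± 0.12 from Control. With the mean of its probes Aldh1l2 passed against none of Control, Het and CM-Het. The cytosolic enzymes that make serine did not follow. Phgdh, the first of them, read 9.56 ± 0.24 (SD, n = 4) in CM-CKO and 10.03 ± 0.22 (SD, n = 3) in Control heads, a difference of −0.47 ± 0.23, and Psat1, the second, read 12.22 ± 0.16 and 12.16 ± 0.03, a difference of 0.07 ± 0.10. Neither passed in any of the comparisons.

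Of the amino acid transporters, 3 of 6 measured genes passed against Control. Slc6a9 encodes GlyT1, the glycine transporter of glia and of red cell precursors, which use glycine for haem. It read 7.17, 6.80 and 6.92 in Control, 7.03, 7.24, 6.90 and 6.63 in Het and 6.82, 7.01, 6.87 and 6.94 in CM-Het heads. In CM-CKO 1 to 4 it read 8.37, 9.04, 7.67 and 9.79. All were above the other arrays, with a spread among the CM-CKO heads (SD 0.91) similar to that of Ddit3 (SD 0.92), and the difference from Control was 1.75 ± 0.33.

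Slc7a3 encodes CAT3, a carrier of arginine and lysine. It read 6.64, 6.44 and 6.76 in Control, 6.72, 6.66, 6.20 and 6.70 in Het and 6.72, 6.63, 6.98 and 7.09 in CM-Het heads. The CM-CKO heads read 7.98, 8.68, 7.95 and 8.80, a difference of 1.74 ± 0.21 from Control with no overlap between CM-CKO and the rest. Slc1a4, a carrier of small neutral amino acids, was higher by 0.61 ± 0.14.

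The subunits of the cystine exchanger and the glutamine carrier differed less. Slc7a11, which imports cystine, had 0.42 ± 0.18 against Control and 0.06 ± 0.17 against CM-Het. Slc3a2, the chain that Slc7a11 and Slc7a5 share, had 0.45 ± 0.15 against Control and passed against CM-Het only. Slc1a5, the glutamine carrier, had −0.40 ± 0.16 and was detected on only 6 arrays. In all, 7 of the 30 genes passed in none of the 3 CM-CKO comparisons: Cebpg, Phgdh, Psat1, Aldh18a1, Cth, Slc7a11 and Slc1a5. With slide as a block Aldh18a1 passed against Control (0.63 ± 0.13) and CM-Het (0.60 ± 0.13), where it had 0.30 and 0.26 without the block. Of the 12 genes with more than 1 kept probe, 11 had all probes on the same side of 0 for CM-CKO minus Control, and Cebpg was the exception. An equal sign does not mean an equal size: the probes of Slc7a11 gave 0.42 and 0.06, those of Vldlr 1.98, 1.92 and 1.82.

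None of the 30 genes passed in any comparison without CM-CKO heads. These comparisons do not use the CM-CKO arrays, but they share the Control, Het and CM-Het arrays with the differences that were known when the genes were chosen. Of all 11625 genes, 0% passed between Het and Control, 0% between CM-Het and Control and 0.0172% between CM-Het and Het. Of the 30 genes, 3, 0 and 1 had an unadjusted p under 0.05 in limma's test in these comparisons. Among all 11625 genes there were 636, 413 and 595. The lowest limma adjusted p of the 30 genes was 0.902, 1.00 and 0.750. Loss of 1 Twist1 allele throughout the head (Het minus Control) gave a median of −0.01 over the 30 genes. Chac1 differed by 0.16 (95% interval −0.34 to 0.67), Trib3 by −0.11 (−0.91 to 0.68) and Atf4 by 0.09 (−0.18 to 0.35). The 3 genes with an unadjusted p under 0.05 were Slc3a2 at 0.37 ± 0.15, Slc1a5 at −0.39 ± 0.16 and Phgdh at −0.56 ± 0.23. They were named after their values were seen.

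Mesp1-Cre on a background with a wild-type Twist1 allele (CM-Het minus Control) also gave a median of −0.01. Chac1 differed by 0.29 (95% interval −0.21 to 0.79), Stc2 by 0.22 (−0.14 to 0.58), Vldlr by 0.27 (−0.04 to 0.57) and Atf4 by −0.02 (−0.29 to 0.24). The 95% intervals of all 30 genes lay within 1 log2 unit of 0 in this comparison and in CM-Het minus Het. In Het minus Control this held for 28 of 30 genes, with lower bounds of −1.05 for Phgdh and −1.03 for Ddit3. With 3 or 4 heads a group the tests do not show that the groups are alike. Between CM-Het and Het heads, Slc3a2 had the lowest p (−0.45 ± 0.14, limma adjusted p = 0.750).

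The interaction sets the effect of Mesp1-Cre on a deleted Twist1 allele (CM-CKO minus Het) against its effect beside a wild-type allele (CM-Het minus Control), and the arms share no array. Its value was above 0 for all 30 genes, with a median of 0.65 where the median of all genes was −0.04. It passed in 7 of 30 genes upward and 0 downward, beside 0.671% of all genes upward and 0.396% downward. It too uses the CM-CKO heads and is given as a description. For Chac1 the effect of Cre was 3.37 ± 0.22 with the deleted allele and 0.29 ± 0.24 with the wild-type allele, an interaction of 3.07 ± 0.32. For Trib3 the interaction was 2.92 ± 0.51, for Stc2 1.73 ± 0.23, for Slc7a3 1.54 ± 0.28 and for Vldlr 1.54 ± 0.20. Cebpb (1.35 ± 0.30) and Asns (1.07 ± 0.21) completed the 7. Slc6a9 and Ddit3 had larger values than these last genes, 1.82 ± 0.45 and 1.69 ± 0.45, but with larger errors, and did not pass.

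**Figure D3:**
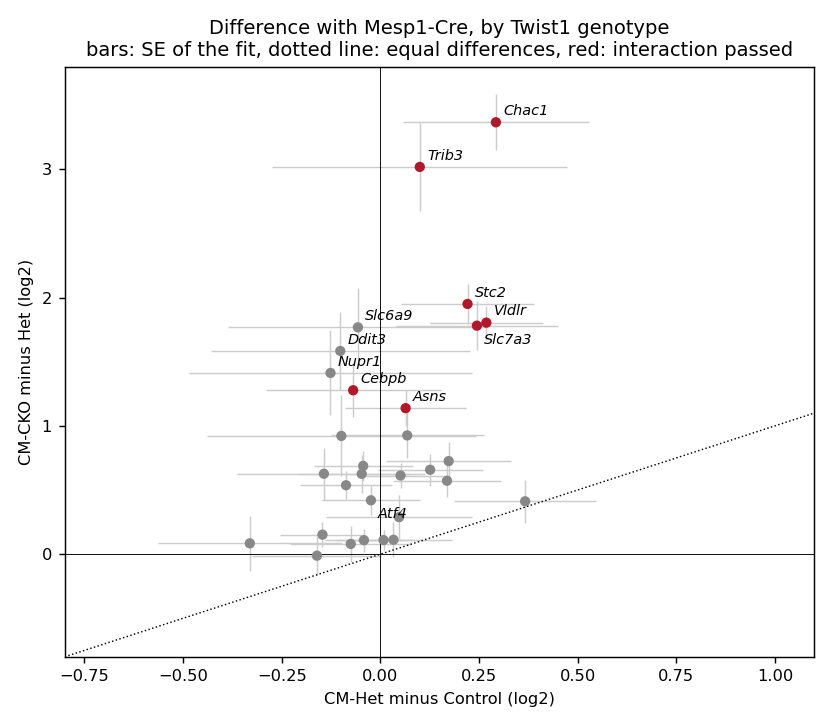
Each point is 1 of the 30 genes: the horizontal axis gives CM-Het minus Control and the vertical axis CM-CKO minus Het, both in log2 units, with bars for the SE of the fit, a dotted line where both are equal, and red for the 7 genes whose interaction passed. The points lie within 0.4 of 0 on the horizontal axis, while on the vertical axis they reach 3.37 for Chac1.

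The 4 CM-CKO heads differed among themselves, and they did so in the same order for many genes. The median of the 30 genes, as log2 signal minus the Control mean, was 0.57, 0.73, 0.32 and 0.80 in CM-CKO 1 to 4, and between −0.06 and 0.10 on the other 11 arrays. CM-CKO 3 was the lowest of the 4 heads for 16 of 30 genes, which was so for 20.3% of all genes and for 250 of the 460 genes that were higher in CM-CKO than in Control. The CM-CKO heads had the same order for the erythroid mean, from CM-CKO 3 through 1 and 2 to 4. This full order was found in 13 of 30 genes, in 7.55% of all genes and in 167 of the 460 higher genes. It was found in Trib3, Slc6a9, Slc7a3, Nupr1, Ddit3, Cebpb and Asns, and not in Atf4, Chac1, Stc2 and Vldlr.

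**Figure D4:**
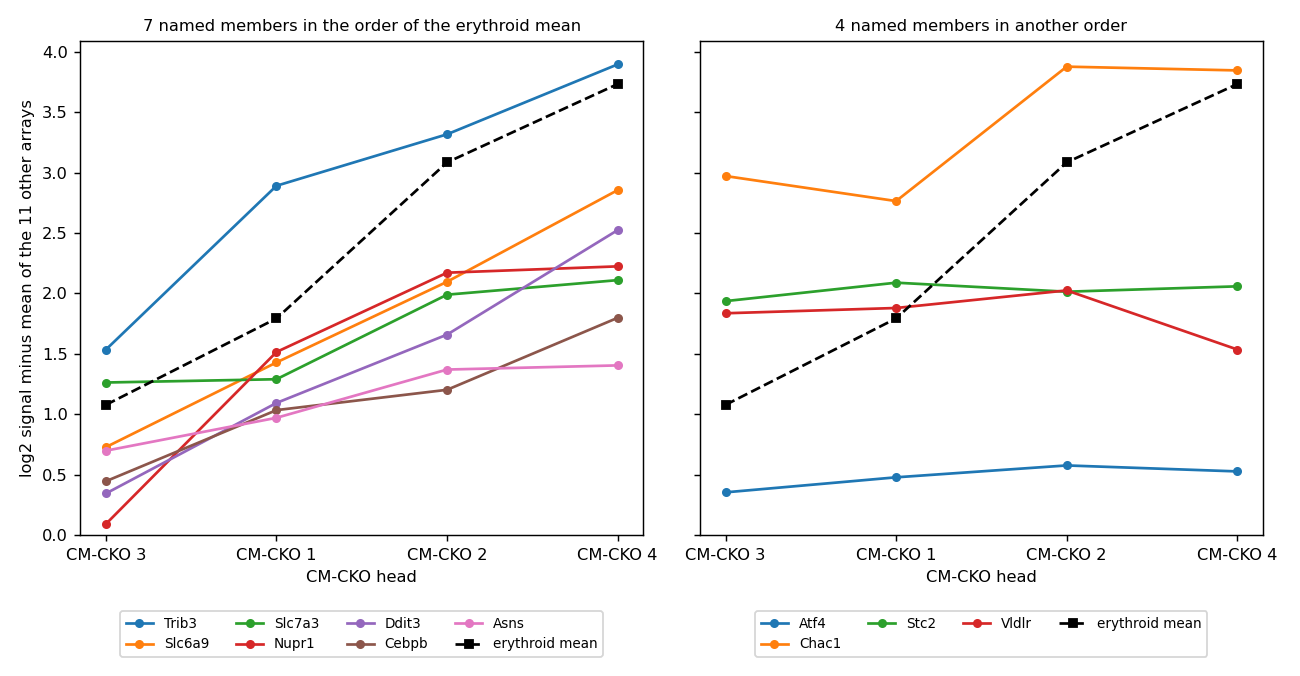
The horizontal axis lists the 4 CM-CKO heads in the order of their erythroid mean and the vertical axis gives log2 signal minus the mean of the 11 other arrays, for the 7 described genes that keep that order (left) and the 4 that do not (right); the dashed line is the mean of 14 erythroid markers. Stc2 and Vldlr run level or end lower in CM-CKO 4, whereas Ddit3 climbs from near 0.3 in CM-CKO 3 to above 2.5 in CM-CKO 4.

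Erythroid markers, like most of these genes, were higher in CM-CKO heads, and 13 of the 30 genes kept the erythroid order within that group. Of 14 measured erythroid markers, 12 were higher in CM-CKO than in Control heads and 0 lower, with a median difference of 2.47. Their summed signal was 7419 to 39186 in CM-CKO heads and at most 3287 elsewhere. Of 16 with a probe, Epb42 and Rhd were detected on no array. Of 8 measured megakaryocyte markers 7 were higher, and of all genes 3.96% were. Of 10 megakaryocyte markers with a probe, 0 were detected on all arrays. The mean log2 signal of the 8 was 4.57 to 5.24 outside the CM-CKO heads. Some may have passed the filter only through the CM-CKO heads, so this count is a description. Of 7 macrophage markers with a probe only 2 were measured and neither passed, and Ptprc and Cx3cr1 were detected on no array. Of 9 endothelial markers 0 were higher and 2 lower against Control, with 5 lower against Het and 5 against CM-Het. Of 6 head neural markers 0 were higher and 2 lower in each of the 3 CM-CKO comparisons. Of 7 head mesenchyme markers, Twist1 among them, 0 were higher, and 1, 3 and 2 were lower against Control, Het and CM-Het.

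With the erythroid mean of each array as a covariate, Chac1, Stc2 and Vldlr, 3 of the 30 genes, passed in each CM-CKO comparison, and Vldlr alone in the interaction. Their differences from Control in that fit were 2.75 ± 0.32, 2.30 ± 0.29 and 2.13 ± 0.24. Trib3 had 1.20 ± 0.34 and Slc7a3 1.12 ± 0.29, and neither passed. Ddit3 had −0.31 ± 0.26, Nupr1 −0.13 ± 0.34, Cebpb −0.017 ± 0.20 and Ppp1r15a −0.72 ± 0.24, and none of these passed. Because no CM-CKO head had an erythroid mean within the range of the other heads, genotype and erythroid content cannot be told apart between the groups. The slope of this covariate rests mainly on the 4 CM-CKO heads.

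Within slides the differences ran the same way for most genes, with sizes that varied. On slide 3, CM-CKO 4 lay above the mean of Control 2 and 3 for 26 of 30 genes (median 0.79) and above the mean of CM-Het 3 and 4 for 30 of 30 (median 0.78). On slide 1, the mean of CM-CKO 1 to 3 lay above Het 1 for 27 of 30 genes (median 0.69). Chac1 differed by 4.02 from Control within slide 3 and by 3.19 from Het within slide 1, Stc2 by 2.26 and 1.45 and Vldlr by 1.73 and 1.80. The slide 3 values rest on CM-CKO 4 alone, and some were well above the pooled ones. Against Control they were 2.39 for Ddit3 (pooled 1.25), 2.19 for Ppp1r15a (pooled 0.97), 2.93 for Slc6a9 (pooled 1.75) and 0.64 for Aldh18a1 (pooled 0.30). On slide 1, Ddit3 exceeded Het 1 by 1.02, Ppp1r15a by 0.95 and Slc6a9 by 1.33.

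Related lists, likewise drawn up with earlier results known, were read for comparison. Of 26 further measured targets of ATF4 and the integrated stress response, 8 were higher and 2 lower in CM-CKO than in Control heads, with a median difference of 0.14. Ddit4, which encodes REDD1, a repressor of mTORC1, was highest at 2.10 ± 0.17. Txnip, which restrains glucose uptake, fell by 1.12 on the log2 scale (SE 0.20). Bcat1, the cytosolic branched-chain aminotransferase and the brightest gene of the list that did not pass, had −0.43 ± 0.14. Of the 8 higher genes, Ndrg1 and Vegfa also stood on the hypoxia list, and without them 6 of 24 were higher. This overlap is only that of the lists as drawn up. Ddit4 stayed among the 24, and whether hypoxia induces it or others of them was not tested.

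The aminoacyl-tRNA synthetases load transfer RNAs and include many ATF4 targets. Of 19 measured, 0 were higher and 1 lower than in Control heads at an adjusted p under 0.05. A difference above 0 was found in 15 of 19 (5255 of all 11625 genes). An unadjusted p under 0.05 in limma's test was found in 8 of 19 (2711 of all 11625 genes). The median difference was 0.15, and 3 were higher and 1 lower against CM-Het. Yars, the tyrosine enzyme, fell by 0.40 on the log2 scale (SE 0.11), and Gars, the glycine enzyme and the brightest, had 0.18 ± 0.08. In the promoters of this list TGATGNAA was found in 5 of 13 genes with a window (38.5%). Among the 31 ATF4 genes with a window it was found in 35.5%.

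Of 15 measured genes of the eIF2 kinases and eIF2 regulation, 0 were higher and 0 lower against Control, with a median of −0.04. An unadjusted p under 0.05 in limma's test was found for 4 of 15, beside 2711 of all 11625 genes. Eif2a, the brightest gene of the list, had 0.14 ± 0.10. It encodes eIF2A, which is not a subunit of the eIF2 that the kinases phosphorylate. Eif2ak1, which encodes HRI, was detected on all 15 arrays and was among the genes that did not pass against Control. Not all kinases were measured: Eif2ak3, which encodes PERK, was detected on only 2 arrays and was not tested. Eif2ak4, which encodes GCN2, was detected on 9 arrays, and Gcn1 on none. The ER chaperones and targets of XBP1 or ATF6 belong to arms of the unfolded protein response that do not run through ATF4. Of 17 measured, 0 were higher and 0 lower, with a median of −0.02. An unadjusted p under 0.05 in limma's test was found for 4 of 17, again beside 2711 of all 11625 genes. Hsp90b1, which encodes GRP94 and was the brightest, had 0.09 ± 0.13. These lists overlap: Dnajc3 also stood on the eIF2 list and Herpud1 on that of further ATF4 targets. Canx and Atf6 were detected on no array. Of 15 measured NRF2 targets and glutathione enzymes, 0 were higher and 1 lower: Gss, glutathione synthetase, fell by 0.53 (log2, SE 0.14), and Prdx1, the brightest, had −0.05 ± 0.09. Against Het heads 2 genes of this list were higher and 0 lower, Gclm at 1.14 ± 0.33 and Hmox1 at 0.49 ± 0.12, and against CM-Het heads Hmox1 alone was higher, at 0.41 ± 0.12. Both were named after their values were seen.

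Most hypoxia-induced genes were higher in CM-CKO heads. Of 24 measured, 18 were higher and 0 lower in CM-CKO than in Control heads, with a median difference of 0.74. The list was drawn up with 0 of the ATF4 genes among these 24. It therefore does not show which ATF4 genes, Stc2 and Vldlr included, hypoxia may also induce. Bhlhe40, a transcriptional repressor induced by HIF, had 2.96 ± 0.23, and P4ha1, a collagen prolyl hydroxylase subunit and the brightest that did not pass, had 0.50 ± 0.23. The summed signal of the list was 32329 to 33958 in the 4 CM-CKO heads and 19716 to 22809 elsewhere, so these heads were more alike for hypoxia genes than for erythroid markers. ACGTG, the core letters of the hypoxia response element, was found in 16 of 23 promoters of the hypoxia list (69.6%), in 11 of 31 of the ATF4 genes (35.5%) and in 21.8% of all genes. The other lists ranged widely: further ATF4 targets 48.3%, synthetases 46.2%, ER chaperones 33.3%, NRF2 30.8% and eIF2 20.0%. Of ATF4 genes higher than in Control heads 4 of 16 held the letters, and of those tested but not higher 4 of 9. For TGATGNAA these counts were 8 of 16 and 1 of 9. Both splits use differences that were known when the genes were chosen, and nothing is read from them. The part of the hypoxia genes in the differences of the ATF4 targets was not tested.

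**Figure D5:**
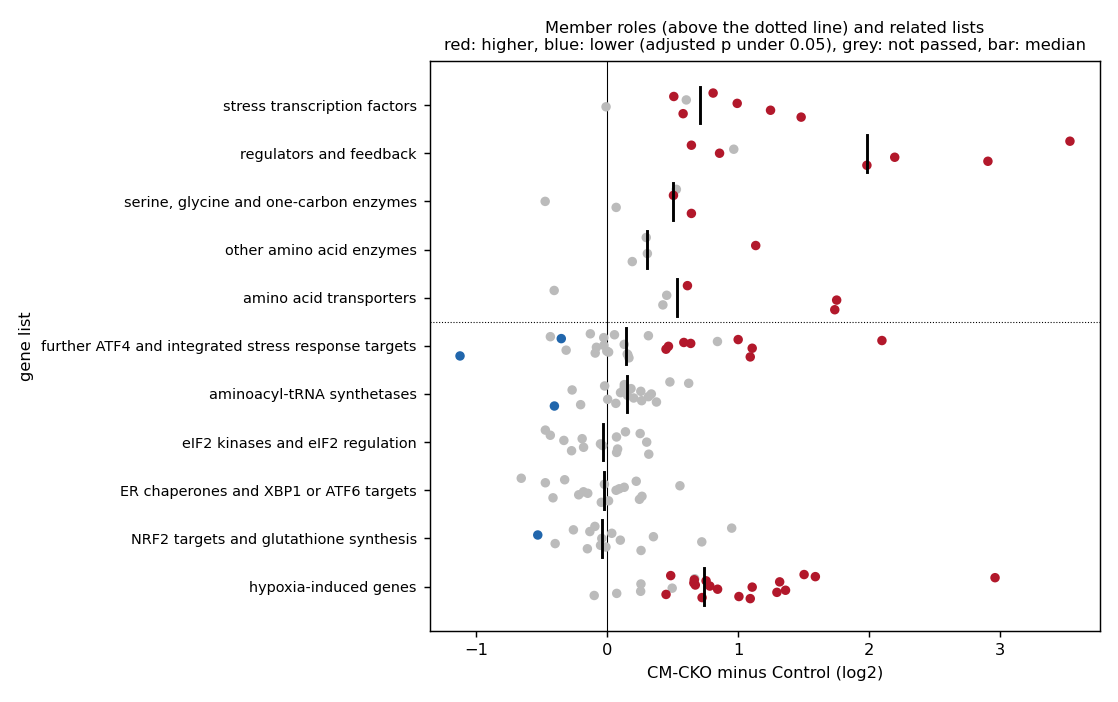
Each point is 1 gene, the horizontal axis gives CM-CKO minus Control in log2 units and each row is a list: the roles of the 30 ATF4 genes above the dotted line and the related lists below it, with red for higher and blue for lower at an adjusted p under 0.05, grey for genes that did not pass and a bar at the median. The regulators (median 1.98) and the hypoxia-induced genes (median 0.74) lie mainly to the right, and the eIF2, ER chaperone and NRF2 lists around 0.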

How the data were processed

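The authors deposited non-normalized bead intensity values and, per the file headers, a detection p-value for each of them. The authors' value table held log2 signals, which served as an alternative. Which software made the signals is not given in the labels or headers used here. The deposited detection p-values were out of the row order of the signals (74.4% to 75.6% of entries per array) and were re-attached by rank. The detection column of Het 1 held its value table column, and its p-values were averaged by rank over the other 14 arrays. For 2804 of 45281 probes the value table differed from the quantile-normalized signals by over 0.02; 10 of these were probes of 5 of the ATF4 genes, and which table has the right probe is not known.

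Background was corrected with limma's nec (normexp from the detection p-values, offset 16) before quantile normalization and log2 transformation. Probes with detection p under 0.05 on at least 3 arrays were kept (21869), and the brightest named each gene (11625 genes). All 4 genotypes were fitted together with limma 3.58.1 in R 4.3.3, with Benjamini-Hochberg adjustment over all genes; errors of differences are SE of this fit. Names came from the series' probe table, and promoters from RefSeq (GRCm38.p6). The fit was tested on simulated data. The genes and lists were chosen with earlier results of these data known. Full values are given for Atf4, the 10 genes with the largest difference between CM-CKO and the 11 other arrays, and any gene passing without CM-CKO. P-values set a difference between groups against the spread between heads of the same genotype, pooled over the 4 genotypes. The main fit held no term for slide, so that spread includes differences between slides. Signal over background and the number of arrays limit precision.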

Additional observations from a re-analysis of the deposited data

Results flagged for a closer look

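Among 90 groups of 4 heads examined (30 genes in 3 genotypes), 4 held a head far from the other 3, which chance gives in about 1 of 20 groups. Sesn2 was low in CM-Het 1 (5.88, the others 6.18 to 6.23). Cth was low in Het 2 (5.51, the others 6.30 to 6.41), and Slc7a3 was low in Het 3 (6.20, the others 6.66 to 6.72). Aldh18a1 was high in CM-CKO 4 (10.40, the others 9.83 to 9.91).

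The effect of Mesp1-Cre differed between the Twist1 genotypes for 7 genes in the interaction test of the limma fit: Cebpb (1.35), Trib3 (2.92), Chac1 (3.07), Stc2 (1.73), Vldlr (1.54), Asns (1.07) and Slc7a3 (1.54), all in log2 units and all higher in CM-CKO heads than the sum of the separate effects. These genes were chosen with the CM-CKO differences known.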

How the results depend on the processing

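The 18, 19 and 23 genes higher in CM-CKO than in Control, Het and CM-Het heads, and the 7 of the interaction, stayed within 1.5 times under most of the settings tried, and the 0 of the other comparisons stayed 0 under all of them. With the erythroid mean as a covariate the counts were 3, 3, 3 and 1. Differences that had passed turned sign for Cebpb (−0.017 against Control, −0.041 against CM-Het) and Ddit3 (−0.31, −0.11 and −0.36 against Control, Het and CM-Het). The same held for Nupr1 (−0.13, −0.33 and −0.15) and for Ppp1r15a (−0.77 against CM-Het, where alone it had passed). With the arrays of the compared groups only, 11 passed against Control, and fewer arrays then estimate the spread. Under median scaling 13 passed against CM-Het, where the median of all genes shifted to −0.12; the cause was not tested. Leaving out 1 array gave 11 to 21 against Control (11 without Control 1 or Control 3, 21 without CM-CKO 3), 16 to 21 against Het, 15 (without CM-CKO 2) to 23 against CM-Het, 4 (without Control 3) to 12 (without CM-CKO 3) in the interaction and 0 in the others. With the replicate number as a block the counts were 17, 18, 23 and 8. The numbers were not taken to pair the arrays, because only 5 of 21 same-number pairs correlated over 0.1; 9 of 15 arrays correlated best with their own number, a hint from the data and not from the design. Over all genes, 841 and 985 passed against Control and Het; these became 434 and 582 under median scaling, 167 and 48 with the erythroid covariate, and 272 and 333 with the compared groups only. The 1152 against CM-Het became 127 with the covariate, and the 124 of the interaction became 263 with slide as a block and 12 with the covariate. Under median scaling the higher share of these calls moved from 54.7% to 77.4% against Control and from 53.4% to 39.0% against CM-Het; with the erythroid covariate it was 79.6% and 87.4%. Atf4 did not pass against Control under median scaling, with the mean of its probes or with slide as a block. The interaction of Cebpb did not pass without background correction (0.97). A difference that passed in no fit was given no direction. Faint signals limit Nupr1 and Slc1a5.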
